A study of Mus musculus with 12 samples.

Results

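The effect of one genotype was compared between 2 fat tissues, white adipose tissue (WAT), which stores fat, and brown adipose tissue (BAT), in which fat is burnt for heat. The 4 groups, of 3 arrays each, were WAT of triple mutants, WAT of ob/ob mice, BAT of triple mutants and BAT of ob/ob mice. All animals were male C57 mice of 4 months on chow, and all were ob/ob, so they lacked leptin. Body weight and fat mass of the 2 genotypes were not examined here. Triple mutant stands for the genotype ob/ob/Cidea-/-/Cidec-/- as the labels give it, and the white depot is not named there. Whether each array stands for its own animal is not stated in the labels, and p-values therefore measure only the spread between samples, which may be technical. For each gene the genotype effect was taken within each tissue on the log2 scale, as triple mutants minus ob/ob mice. The tissue difference is the effect in WAT minus the effect in BAT, and it is positive where WAT of triple mutants gained more, or lost less, than BAT. A tissue difference of 1 means that the ratio between genotypes is 2-fold larger in WAT. All 12 arrays and all 21593 genes with a symbol entered. A call means an adjusted p below 0.05 in limma (Benjamini-Hochberg over all genes, two-sided).

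Cidea and Cidec encode proteins of the lipid droplet surface that let droplets exchange lipid and grow. Cidea is typical of brown fat and Cidec of white fat. Brown adipocytes carry many small droplets and dense mitochondria with the uncoupling protein Ucp1, whereas white adipocytes store 1 large droplet. In obese white fat, macrophages gather around adipocytes and take up their lipid through lysosomes.

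The brown fat marker Ucp1 lay between 4.91 and 10.36 on the 6 WAT arrays (log2 level) and between 11.46 and 12.62 on the 6 BAT arrays. Skeletal muscle markers set the BAT arrays apart from each other. Their mean log2 level over 30 genes was 10.18, 7.71 and 6.25 in triple mutant BAT, against 7.27, 10.66 and 10.44 in ob/ob BAT, while all WAT arrays lay between 5.39 and 5.56. The array ob/ob BAT 1 also stood apart in macrophage markers, with a mean log2 level of 8.60 against 7.80 and 7.98 on the other ob/ob BAT arrays. Results were therefore also taken with the muscle mean as a covariate, an alternative chosen after the data were seen, and without each array. The share of genes whose signal exceeded the highest antigenomic control, a probe set with no mouse target and here the measure of background, ran from 19.5% to 32.3% of genes per array. A group under background has no measured level, so an effect or tissue difference taken against it is no estimate of a fold. In whole tissue a smaller number of cells of a type and less RNA per cell cannot be told apart.

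Signal was measured for both genes named as deleted. Cidea (chromosome 18, 67503258 to 67527432, build NCBIM37) had log2 levels of 8.42, 8.95 and 10.03 in triple mutant WAT, against 4.86, 5.55 and 5.51 in ob/ob WAT, and 11.29, 11.39 and 11.29 in triple mutant BAT, against 11.39, 11.44 and 11.51 in ob/ob BAT. Its tissue difference was 3.95 (SE 0.45, limma adjusted p = 0.000901). The effect was called in WAT (3.83) and not in BAT (−0.13, limma adjusted p = 0.836), and ob/ob WAT was under background, so 3.95 is no estimate of a fold. Cidec (chromosome 6, 113374628 to 113385749) had an effect of −0.44 in WAT (limma adjusted p = 0.0527) and −0.11 in BAT (limma adjusted p = 0.701), with a tissue difference of −0.34 (SE 0.23, limma adjusted p = 0.352). The sources used here do not give where the deleted parts lie relative to the probes. These signals therefore check no label, and every direction below rests on the labels.

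Across the genome the genotype moved WAT further than BAT. The tissue difference was called for 2993 of 21593 genes (13.9%), 1182 positive (5.47%) and 1811 negative (8.39%), and 6457 genes had an unadjusted limma p under 0.05. With the replicate number as a random block 1949 positive and 2524 negative differences were called. With arrays centred on their medians, 795 positive and 2782 negative differences were called, so that positive calls made up 22.2% in place of 39.5%. That centring moved the median difference of all genes to −0.05, against 0.07 as deposited. The effect in WAT was called for 7407 genes (34.3%), 3806 higher (17.6%) and 3601 lower (16.7%), and the effect in BAT for 3753 (17.4%), 2247 higher (10.4%) and 1506 lower (6.97%). The SD of the effect over all genes was 0.67 in WAT and 0.39 in BAT.

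The called differences fell into a few patterns. Of the 2993, 1886 had a called effect in WAT and none called in BAT, and 469 had effects called in the same direction in both tissues with the larger one in WAT. In 390 the effect was called in BAT and not in WAT, and in 12 both were called in the same direction with the larger one in BAT. The effects were called in opposite directions in 122 genes (0.565% of all genes), and in 114 neither effect was called alone. The absolute effect was the larger one in WAT for 2449 of the 2993 genes (81.8%), against 59.4% of all genes. When ob/ob WAT array 1, ob/ob WAT array 2 or ob/ob BAT array 3 was left out, the number of called differences was 1778, 1848 and 1830, in that order.

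The same contrast can be read as the gap between tissues within a genotype. Over the 1811 genes with a negative difference, the median of WAT minus BAT was −0.04 in triple mutants, against 0.79 in ob/ob mice, both on the log2 scale. Over the 1182 genes with a positive difference it was 0.19 in triple mutants, against −0.49 in ob/ob mice. The absolute gap was smaller in triple mutants for 2363 of the 2993 called genes (79.0%), against 67.4% of all genes. These medians come from the values that made the calls and are given as a description.

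**Figure D1:**
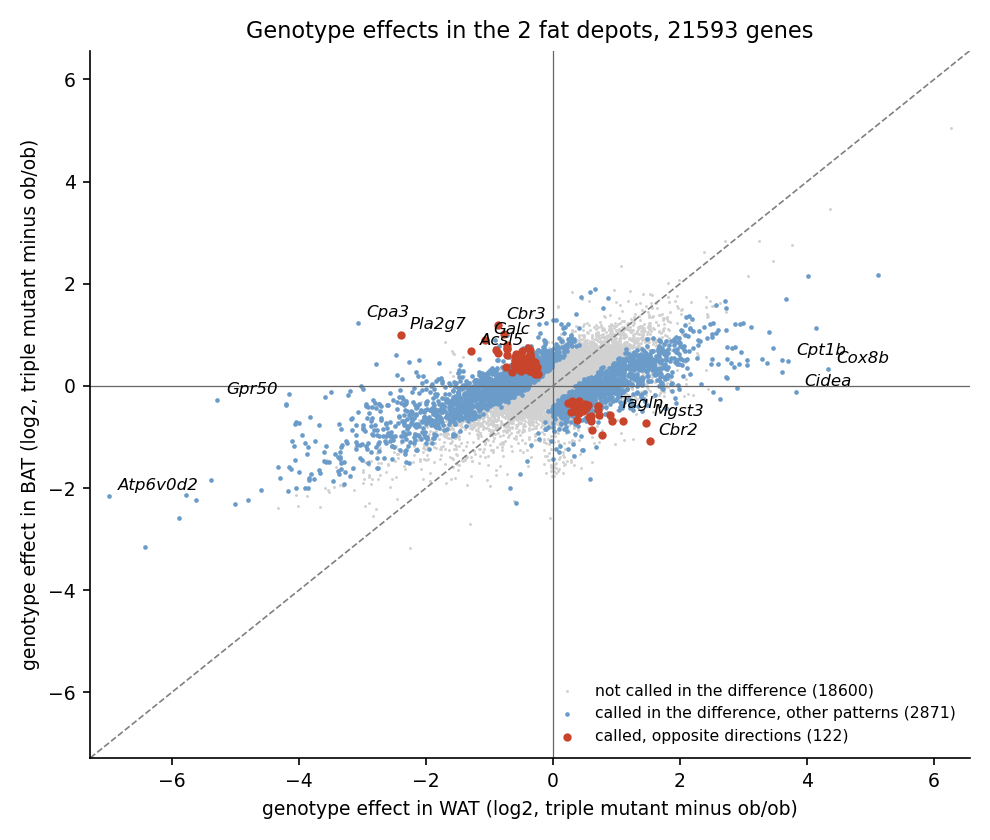
Effect of the genotype in WAT (x axis) and in BAT (y axis) for 21593 genes, log2, triple mutant minus ob/ob, with the dashed line marking equal effects. Grey points are genes without a called tissue difference, blue points called genes and red points the 122 genes with called effects of opposite direction, which lie in the upper left and lower right. The cloud is wider along the WAT axis (SD 0.67) than along the BAT axis (0.39).

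Effects of opposite direction made up a small share of the called differences (4.08%). Of the 122 genes, 38 were higher in triple mutant WAT and lower in triple mutant BAT (0.176% of all genes), and 84 were lower in WAT and higher in BAT (0.389%). This split depended on the scaling and on 1 array, with 20 and 194 genes when arrays were centred on their medians, 45 and 62 with quantile normalization within each tissue, and 60 and 75 without triple mutant WAT array 3. The genotypes did not overlap in either tissue for 116 of the 122, against 21.9% of all genes (46.6% in WAT and 35.5% in BAT taken alone), and nothing is read from that count, since the calls rest on the same values. Most effects were small, with both at least 0.5 in size for 31 genes and both at least 1 only for Cbr2. At least 1 group lay above background for 69 of them. The number of opposite genes depended on single arrays. It was 55 without triple mutant BAT array 3, and between 65 and 81 without triple mutant WAT array 1 or 2, triple mutant BAT array 1 or 2, ob/ob WAT array 1 or 2, or ob/ob BAT array 3. It was 96 with the muscle covariate, 77 of these among the 122. When effects beyond log2 0.5 were required (treat), 0 genes were opposite. Leaving treat aside, 21 other settings gave effects within each tissue. Of the 122 genes, 23 kept an opposite call in each of those 21 that tested them, and 29 kept it in fewer than 0.5 of them.

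Cbr2, a carbonyl reductase (chromosome 11, 120590803 to 120593309), was the gene with the largest opposite effects among those higher in WAT. Its log2 levels were 10.11, 9.99 and 10.18 in triple mutant WAT, against 8.14, 8.46 and 9.07 in ob/ob WAT, and 7.99, 7.85 and 7.98 in triple mutant BAT, against 9.13, 9.21 and 8.72 in ob/ob BAT. The genotypes were apart in both tissues, and the order of the tissues turned round between them. The effect was 1.53 in WAT and −1.08 in BAT, with a tissue difference of 2.62 (SE 0.28, limma adjusted p = 0.00084). Triple mutant BAT lay just under background, so the effect in BAT and the tissue difference are no estimates of a fold. The opposite call held in all 21 of those settings, and was lost under treat.

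Mgst3, a membrane-bound glutathione transferase and peroxidase (chromosome 1, 169302515 to 169323928), had log2 levels of 8.81, 8.98 and 9.25 in triple mutant WAT, against 7.08, 7.56 and 8.02 in ob/ob WAT. In BAT the levels were 8.001, 8.05 and 8.02 in triple mutants, against 8.69, 8.87 and 8.67 in ob/ob mice. The groups did not overlap in either tissue. Its tissue difference was 2.18 (SE 0.27, limma adjusted p = 0.00118), from effects of 1.46 and −0.72. The effect in BAT was not called without ob/ob BAT array 2 or 3, or without any 1 of the triple mutant BAT arrays (limma adjusted p from 0.051 to 0.065).

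Vessel and smooth muscle genes were among this set. Tagln, an actin-binding protein of smooth muscle, had log2 levels of 7.99, 7.94 and 7.76 in triple mutant WAT, against 7.04, 6.89 and 7.04 in ob/ob WAT, and 6.66, 6.41 and 6.30 in triple mutant BAT, against 6.90, 7.12 and 7.02 in ob/ob BAT. Its tissue difference was 1.47 (SE 0.15, limma adjusted p = 0.00084), and the opposite call held in all 21 of those settings. Only triple mutant WAT was above background for Tagln, so neither its effects nor its difference estimate a fold. Egfl7, a protein secreted by endothelial cells, had 8.84, 8.87 and 8.76 in triple mutant WAT, against 7.87, 8.08 and 8.38 in ob/ob WAT, and 8.81, 8.73 and 8.78 in triple mutant BAT, against 9.40, 9.18 and 9.17 in ob/ob BAT. Its effects were 0.71 and −0.48, and its tissue difference was 1.19 (SE 0.17, limma adjusted p = 0.00211). Without ob/ob BAT array 1, or triple mutant BAT array 2 or 3, the effect in BAT was not called (limma adjusted p from 0.051 to 0.065).

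Other members higher in WAT and lower in BAT were surface receptors, signalling proteins and a transcription factor. Adgrg1, an adhesion receptor, had effects of 1.10 in WAT and −0.68 in BAT and a tissue difference of 1.78 (limma adjusted p = 0.0019). Cdh13, the T-cadherin that binds adiponectin, had effects of 0.62 and −0.86, and the difference was 1.48 (limma adjusted p = 0.00475). Bcam, a laminin receptor, had effects of 0.73 and −0.56. Gdf10, a ligand of the TGF-beta superfamily, had 0.60 and −0.70, and Twist2, a basic helix-loop-helix factor, had 0.93 and −0.69. The tissue difference of these 5 genes was called in all settings, except for Cdh13, Bcam, Gdf10 and Twist2 when a difference beyond 0.5 was required. Their opposite calls were less stable, and held in 18 of 21 settings for Adgrg1, 19 for Cdh13, 15 for Bcam, 11 for Twist2 and 9 for Gdf10. In each of the 5, leaving out 1 array was enough to lose the call of 1 tissue.

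Pla2g7, the secreted phospholipase that inactivates platelet-activating factor (chromosome 17, 43705400 to 43749150), had the largest tissue difference of the genes lower in WAT and higher in BAT. Its log2 levels were 8.23, 8.25 and 8.42 in triple mutant WAT, against 11.10, 10.63 and 10.33 in ob/ob WAT. In BAT they were 9.89, 10.31 and 10.15 in triple mutants, against 9.58, 8.71 and 9.09 in ob/ob mice. All groups lay above background and the genotypes did not overlap. The effects were −2.39 and 0.99, and the tissue difference was −3.38 (SE 0.32, limma adjusted p = 0.000453), opposite in all 21 of those settings.

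Galc, Sgpl1 and Ormdl1, which act on sphingolipids, were also lower in WAT and higher in BAT, and no list of sphingolipid genes was counted. Galc, the lysosomal galactosylceramidase (chromosome 12, 99440510 to 99497617), had log2 levels of 8.26, 8.30 and 8.28 in triple mutant WAT, against 9.41, 9.56 and 9.09 in ob/ob WAT, and 8.34, 8.50 and 8.57 in triple mutant BAT, against 7.70, 7.63 and 7.40 in ob/ob BAT. Its tissue difference was −1.97 (SE 0.17, limma adjusted p = 0.00031). For Galc, ob/ob BAT was under background, so the effect in BAT and the difference are no estimates of a fold. Sgpl1, which cleaves sphingosine-1-phosphate, had 9.65, 9.69 and 9.80 in triple mutant WAT, against 10.48, 10.23 and 10.10 in ob/ob WAT, and 9.64, 9.71 and 9.74 in triple mutant BAT, against 9.33, 8.93 and 9.05 in ob/ob BAT. Its difference was −1.14 (SE 0.17, limma adjusted p = 0.00261). Ormdl1, a regulator of sphingolipid synthesis, had effects of −0.58 and 0.63, with every group under background. Leaving treat aside, these opposite calls held in all settings that tested the gene (21, 21 and 20).

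Acsl5, which activates long fatty acids, had log2 levels of 7.76, 7.92 and 8.07 in triple mutant WAT, against 9.34, 9.29 and 8.97 in ob/ob WAT, and 9.07, 9.24 and 9.36 in triple mutant BAT, against 8.60, 8.57 and 8.45 in ob/ob BAT. Its tissue difference was −1.97 (SE 0.17, limma adjusted p = 0.00028), from effects of −1.29 and 0.68. St6gal1, a sialyltransferase, had 7.37, 7.31 and 7.12 in triple mutant WAT, against 8.22, 8.04 and 7.85 in ob/ob WAT, and 7.63, 7.88 and 8.47 in triple mutant BAT, against 7.25, 6.85 and 6.81 in ob/ob BAT. Its difference was −1.80 (SE 0.28, limma adjusted p = 0.00307). Neither gene had overlapping genotypes, and both opposite calls held in all 21 of those settings. For St6gal1, triple mutant WAT and ob/ob BAT were under background, so its effects and difference are no estimates of a fold. Cbr3, a second carbonyl reductase, ran opposite to Cbr2, with effects of −0.86 in WAT and 1.19 in BAT and a tissue difference of −2.05 (SE 0.27, limma adjusted p = 0.00169), and its 4 groups were under background. Atp6v1c1, a proton pump subunit of acid compartments, had effects of −0.87 and 0.65, and its opposite call held in 12 of 21 settings.

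**Figure D2:**
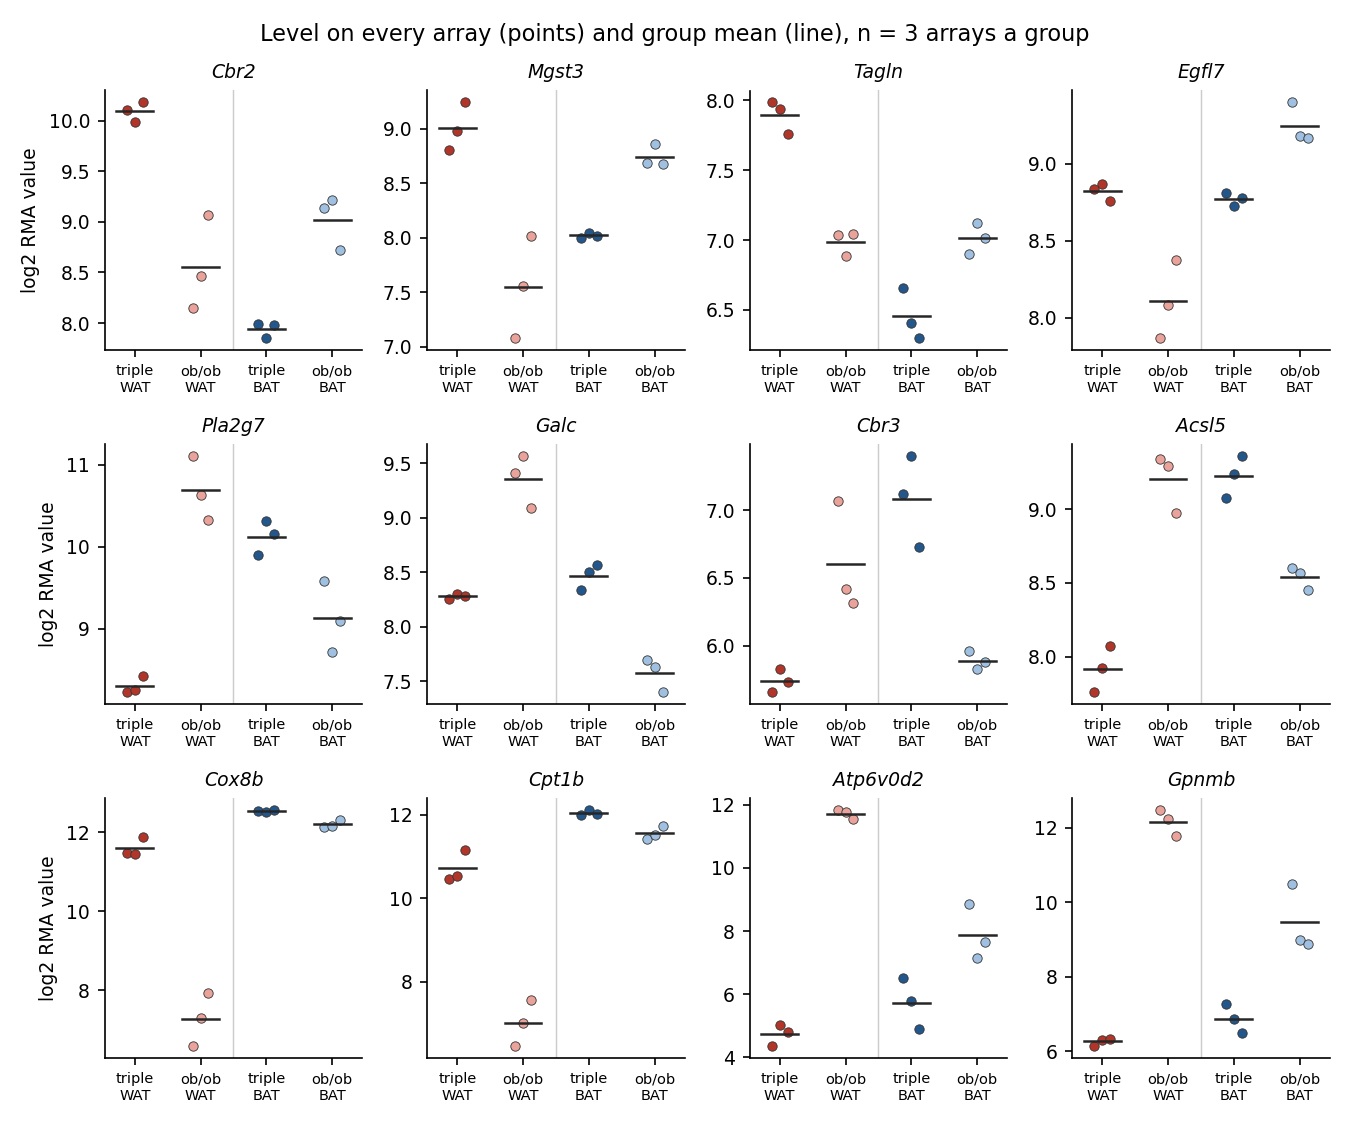
Log2 level on each of the 12 arrays (points) with group means (lines) for 12 genes, triple mutant left of ob/ob, WAT left of BAT. The upper row shows genes higher in triple mutant WAT and lower in triple mutant BAT, the middle row the reverse, and the lower row genes whose effect was larger in WAT. Cbr2 has 9.99 to 10.18 in triple mutant WAT and 7.85 to 7.99 in triple mutant BAT. Each panel has its own level axis.

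The authors' deposited tables of changed genes list 5945 probe sets for WAT and 1164 for BAT, with 679 in both (58.3% of the BAT table and 11.4% of the WAT table). Of these, 668 have the same direction and 11 opposite directions. The authors' deposited tables give log2 changes of 1.54 in WAT and −0.997 in BAT for Cbr2, of 1.44 and −0.64 for Mgst3, of −0.70 and 0.87 for Cbr3, and of −1.22 and 0.63 for Acsl5. Of the 11, 8 were also opposite by the test used here.

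Mitochondrial genes gained more in WAT than in BAT. The list counts here and below are to be read beside the shares over all genes, 5.47% called positive and 8.39% negative. In the respiratory chain 25 of 37 complex I genes, 13 of 14 genes of complexes II and III, 12 of 21 of complex IV and 12 of 17 of the ATP synthase were called positive and none negative, with medians of 0.79, 0.93, 0.70 and 0.70, against 0.07 over all genes. So were 17 of 22 genes of the tricarboxylic acid cycle (median 0.93) and 14 of 22 of mitochondrial fatty acid oxidation (0.91), of which 8 were called when triple mutant BAT array 1 or ob/ob BAT array 3 was left out and 9 when ob/ob WAT array 2 was. For complex I the median effect was 1.25 in WAT, where 37 of 37 genes were called higher, and 0.48 in BAT, where 24 were, with 13 without ob/ob BAT array 1 and 12 without triple mutant BAT array 3. The mean log2 level of the complex I genes was 9.89 to 10.22 in triple mutant WAT and 10.49 to 10.64 in triple mutant BAT, against 8.57 to 8.86 in ob/ob WAT and 9.88 to 10.15 in ob/ob BAT. With median centring 20 complex I genes and 8 ATP synthase genes had a called positive difference. The ATP synthase also had 8 without ob/ob WAT array 1 or 2. With treat the difference was called for 2 genes of complex I, 1 of complexes II and III, 4 of complex IV and 2 of the ATP synthase. The 75 genes of the mitochondrial ribosome had a smaller median, with 7 called (median 0.23). Without single arrays this was 4 (ob/ob WAT array 1 or triple mutant BAT array 1), 3 (triple mutant BAT array 2), 2 (ob/ob WAT array 2) or 1 (ob/ob BAT array 3), with median centring or the muscle covariate 4, and with quantile normalization within tissue 12. Array weights gave 10 positive and 3 negative calls, and 2 negative ones came without triple mutant WAT array 3.

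Cox8b, a subunit of cytochrome c oxidase in brown fat and muscle (chromosome 7, 148084841 to 148086322), had the largest positive tissue difference among genes called. Its log2 levels were 11.46, 11.44 and 11.86 in triple mutant WAT, against 6.58, 7.29 and 7.92 in ob/ob WAT, and 12.54, 12.50 and 12.55 in triple mutant BAT, against 12.12, 12.16 and 12.30 in ob/ob BAT. The difference was 3.99 (SE 0.36, limma adjusted p = 0.00031), and ob/ob WAT lay under background. As for Cox8b, ob/ob WAT was under background for Cpt1b, Cox7a1 and Ppargc1a. Cpt1b, which lets fatty acids enter mitochondria in muscle and brown fat, had effects of 3.70 in WAT and 0.49 in BAT and a difference of 3.22 (SE 0.34, limma adjusted p = 0.00084). Cox7a1, another oxidase subunit of heart, muscle and brown fat, had 3.38 and 0.44, and Ppargc1a, a coactivator of mitochondrial genes, had 2.85 and 0.38 with a difference of 2.47 (limma adjusted p = 0.00522). In the brown and beige fat list 10 of 26 genes were called positive and none negative (median 0.62), while some settings called negative ones, such as array weights with 2.

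Some brown fat genes had large effects without a called tissue difference. Elovl3, a fatty acid elongase of active brown fat, had log2 levels of 11.43, 11.01 and 11.58 in triple mutant WAT, against 4.85, 5.16 and 5.21 in ob/ob WAT, and 10.61, 10.25 and 10.16 in triple mutant BAT, against 5.94, 5.25 and 4.67 in ob/ob BAT. Both ob/ob groups were under background. The effects, computed as 6.26 and 5.05, were both called, the difference between them missed the threshold (limma adjusted p = 0.0547), and none of the 3 estimates a fold. Ucp1 had effects of 2.97 and 0.64, and its difference of 2.33 was not called (SE 0.94, limma adjusted p = 0.123). For Ucp1 and Ppara ob/ob WAT was under background. The spread of Ucp1 in triple mutant WAT was wide, at 6.94, 7.89 and 10.36. Ppara, a nuclear receptor that drives fatty acid oxidation, was higher in both tissues, with effects of 3.40 and 1.05 and a called difference of 2.35 (SE 0.46, limma adjusted p = 0.00888).

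Genes of fat synthesis and lipolysis also had positive differences. Over all genes 5.47% were called positive and 8.39% negative. In the fatty acid and triglyceride synthesis list 10 of 28 genes were called positive and 1 negative (median 0.95), and in lipolysis 7 of 21 positive and none negative (0.65). Lipolysis had 4 calls when triple mutant WAT array 1, triple mutant BAT array 1 or 2, ob/ob BAT array 3 or ob/ob WAT array 2 was left out, 4 with the muscle covariate and 13 without ob/ob WAT array 3. Pck1, which makes glycerol phosphate for triglycerides in fat, had log2 levels of 11.82, 11.89 and 12.11 in triple mutant WAT, against 7.94, 8.44 and 9.03 in ob/ob WAT, and 12.33, 12.32 and 12.44 in triple mutant BAT, against 11.86, 11.45 and 11.57 in ob/ob BAT. Its difference was 2.74 (SE 0.31, limma adjusted p = 0.000901). Cfd, the adipokine adipsin, had effects of 4.14 and 1.14 with a difference of 2.997 (limma adjusted p = 0.0029), with ob/ob WAT under background. In the list of glucose uptake and glycolysis 5 of 23 genes were called positive and 2 negative (median 0.27), and 2 in each direction without ob/ob BAT array 3. Slc2a4, the insulin-responsive glucose transporter, had effects of 1.86 and 0.20 with a difference of 1.66 (limma adjusted p = 0.0108). Adiponectin (Adipoq), leptin (Lep) and Pparg, the main regulator of adipocyte genes, had differences of 0.90, 0.45 and 0.31 that were not called (limma adjusted p = 0.0805, 0.211 and 0.306).

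**Figure D3:**
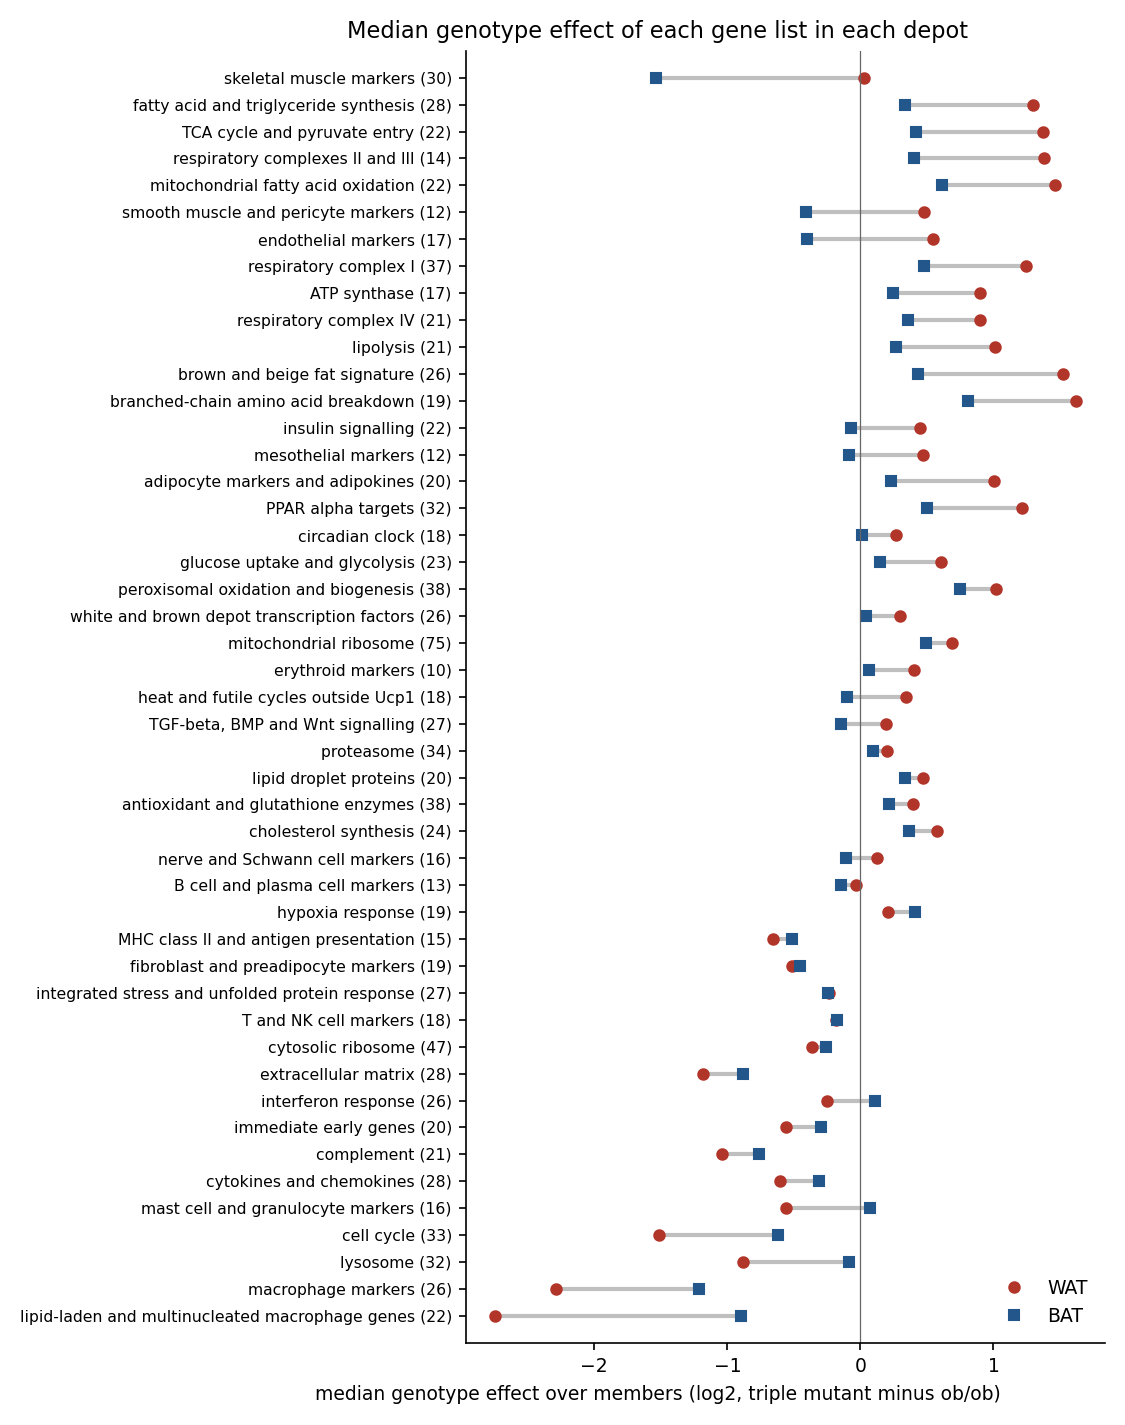
Median effect of the genotype (log2, triple mutant minus ob/ob) over the measured members of each of 47 gene lists, with WAT as red circles, BAT as blue squares and the number of members in brackets, ordered by the median tissue difference. Mitochondrial lists lie right of 0 in both tissues and further right in WAT. Macrophage and lipid-laden macrophage lists lie left of 0 and further left in WAT. Endothelial and smooth muscle lists lie on either side of 0.

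The negative differences were led by genes of macrophages and lysosomes. Of 26 macrophage markers 18 were called negative and none positive (median −1.20), with median effects of −2.29 in WAT and −1.22 in BAT. Of 22 genes of lipid-laden and multinucleated macrophages 10 were called negative (median −1.79). The number was 16 with the random replicate block or with array weights, and 15 with median centring or without ob/ob BAT array 1. Without ob/ob BAT array 2 the median was −1.19, with 9 called. The mean log2 level of the macrophage markers was 7.41 to 7.54 in triple mutant WAT and 6.91 to 7.004 in triple mutant BAT, against 9.62 to 9.74 in ob/ob WAT and 7.80 to 8.60 in ob/ob BAT. The number of called macrophage markers was 8 when ob/ob WAT array 1 or ob/ob BAT array 3 was left out, 9 with ob/ob WAT array 2 left out, 10 without triple mutant BAT array 1, 11 without triple mutant WAT array 1 or 2, 12 without triple mutant BAT array 3 and 11 with the muscle covariate. The median was between −1.36 and −0.99 in all settings.

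Atp6v0d2, part of the proton pump in osteoclasts and in macrophages full of lipid (chromosome 4, 19803985 to 19849713), had log2 levels of 4.36, 5.03 and 4.80 in triple mutant WAT, against 11.83, 11.77 and 11.54 in ob/ob WAT, and 6.52, 5.79 and 4.89 in triple mutant BAT, against 8.86, 7.14 and 7.66 in ob/ob BAT. Its effects were −6.98 and −2.15 and its tissue difference −4.83 (SE 0.61, limma adjusted p = 0.00125). Only ob/ob WAT was above background. Gpnmb, a membrane glycoprotein of lipid-laden macrophages, had 6.14, 6.31 and 6.34 in triple mutant WAT, against 12.46, 12.23 and 11.77 in ob/ob WAT, and 7.28, 6.86 and 6.48 in triple mutant BAT, against 10.48, 8.99 and 8.89 in ob/ob BAT. The difference was −3.31 (SE 0.51, limma adjusted p = 0.00314). Both triple mutant groups were under background for Gpnmb. Both genes were lower in both tissues, and the genotypes did not overlap.

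Lipa, Nceh1 and Il1rn were lower in WAT, with no called effect in BAT. Lipa, the lysosomal acid lipase, had log2 levels of 9.48, 9.55 and 9.85 in triple mutant WAT, against 12.29, 11.94 and 11.78 in ob/ob WAT, and 10.36, 10.63 and 10.28 in triple mutant BAT, against 10.98, 9.90 and 9.99 in ob/ob BAT. Its difference was −2.50 (SE 0.35, limma adjusted p = 0.00208), and all groups were above background. Nceh1, a cholesterol ester hydrolase, had effects of −3.58 and −0.22, and Il1rn, the interleukin-1 receptor antagonist, −4.05 and −0.70. Ctsk, a lysosomal cysteine protease, had called effects in both tissues, −4.07 and −1.44. Triple mutant WAT and BAT were under background for Nceh1, Il1rn and Ctsk, as was ob/ob BAT for Il1rn and Ctsk. Gpr50, an orphan receptor related to melatonin receptors (chromosome X, 68916942 to 68921264), had the largest difference of all named genes, −5.00 (SE 0.25, limma adjusted p = 6.22e-06). Its log2 levels were 4.23, 4.16 and 4.24 in triple mutant WAT, against 8.96, 9.71 and 9.80 in ob/ob WAT, and 4.03 to 4.29 in triple mutant BAT, against 4.38 to 4.49 in ob/ob BAT. Only ob/ob WAT exceeded background, so the difference is no fold estimate.

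Lysosome genes were lower in WAT, with a median effect near 0 in BAT. Of 32 lysosome genes 23 were called negative and none positive (median −0.85). Their median effect was −0.88 in WAT, where 26 were called lower, and −0.09 in BAT, where 6 were (3 without triple mutant BAT array 2 or 3). The mean log2 level of the list was 9.35 to 9.47 in triple mutant WAT and 9.25 to 9.26 in triple mutant BAT, against 10.33 to 10.54 in ob/ob WAT and 9.27 to 9.66 in ob/ob BAT, the 9.66 being ob/ob BAT array 1. Without that array 24 lysosome genes were called negative and the median effect in BAT was 0.02. Gla, the lysosomal alpha-galactosidase, had log2 levels of 6.95, 7.01 and 6.81 in triple mutant WAT, against 10.43, 10.04 and 9.52 in ob/ob WAT, and 7.15, 6.88 and 6.88 in triple mutant BAT, against 8.21, 7.004 and 7.21 in ob/ob BAT. Its difference was −2.57 (SE 0.40, limma adjusted p = 0.00323), with only ob/ob WAT above background. Hexa, a subunit of beta-hexosaminidase, and Npc1, which exports cholesterol from lysosomes, had differences of −1.52 and −1.27.

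Promoter sequences of the lysosome genes are shown because the genes moved together and many lysosome genes are known to carry the palindrome TCACGTGA, to which the factor TFEB and its relatives bind. Windows from RefSeq (GRCm38.p6), 250 bases before to 50 after a start site, were searched on both strands for 17 motifs, tried after the calls were known. TCACGTGA, which contains the shorter motif CACGTG, was in the windows of 4 of 15 called lysosome genes that matched by symbol. It was in 48 of 1402 genes with a negative difference (3.42%), 10 of 875 with a positive one (1.14%) and 244 of all 16066 matched genes (1.52%). Over all 32851 windows the share was 0.974%. A match describes letters and no binding was measured. The 4 windows are given 5′ to 3′ along the gene, 100 bases each, with the motif in capitals.
Gla (chrX:134601147-134601246, minus strand): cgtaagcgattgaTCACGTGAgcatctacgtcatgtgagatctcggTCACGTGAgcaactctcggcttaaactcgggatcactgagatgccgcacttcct
Ctsa (chr2:164833723-164833822, plus strand): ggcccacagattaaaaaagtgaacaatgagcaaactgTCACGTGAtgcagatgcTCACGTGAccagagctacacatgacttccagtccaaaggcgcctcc
Ctsd (chr7:142387873-142387972, minus strand): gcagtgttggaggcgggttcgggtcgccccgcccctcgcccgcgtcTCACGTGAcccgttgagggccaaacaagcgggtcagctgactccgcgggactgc
Atp6v1a (chr16:44139338-44139437, minus strand): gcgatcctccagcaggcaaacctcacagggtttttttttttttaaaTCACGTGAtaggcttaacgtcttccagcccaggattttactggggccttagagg

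The 4 windows were taken from called lysosome genes, all of them negative, so that the direction was fixed by the choice. Ctsa, a protective protein and carboxypeptidase of lysosomes, had a tissue difference of −0.97 (limma adjusted p = 0.0112), and Ctsd, an aspartic protease, one of −0.68 (limma adjusted p = 0.0141). Atp6v1a, a catalytic subunit of the proton pump, had −1.02 (limma adjusted p = 0.00913). Of 97 matched genes with opposite effects 2 held TCACGTGA.

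A second motif, GAGGAAGT, resembles the site of PU.1, a factor of macrophages and other myeloid cells. It was in the windows of 93 of 1402 genes with a negative difference (6.63%), 14 of 875 with a positive one (1.6%), 545 of the 16066 matched genes (3.39%) and 3.2% of all windows. Of 13 called macrophage markers that matched, 3 held it. Related motifs of the 17 also differed. CACGTG was in 14.1% of the genes with a negative difference, 8.69% of those with a positive one and 9.43% of all matched genes. A longer motif that contains GAGGAAGT was in 1.43%, 0.229% and 0.529%, in that order. Longer motifs that contain CACGTG were in 1.36%, 0.457% and 0.523%, and in 0.856%, 0.229% and 0.479%. Not all motifs of the 17 had such a contrast. AAGGTCA, a binding site of orphan nuclear receptors, was in 4.07% of the genes with a negative difference, 5.03% of those with a positive one and 4.53% of all matched genes, and CCAATCAG, a CCAAT box, in 5.28%, 5.03% and 5.56%, in that order. The windows of Fcgr4, an immunoglobulin receptor of macrophages, and Mmp12, the macrophage elastase, are shown in the same way, with the motif in capitals on the opposite strand, where it reads ACTTCCTC.
Fcgr4 (chr1:171018856-171018955, plus strand): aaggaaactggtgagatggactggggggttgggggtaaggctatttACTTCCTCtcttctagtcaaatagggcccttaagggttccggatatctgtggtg
Mmp12 (chr9:7344263-7344362, plus strand): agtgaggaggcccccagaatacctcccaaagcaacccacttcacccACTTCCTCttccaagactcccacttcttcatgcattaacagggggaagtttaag

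Fcgr4 had log2 levels of 5.45, 5.09 and 5.18 in triple mutant WAT, against 8.38, 8.002 and 7.83 in ob/ob WAT, and 5.38, 5.20 and 4.78 in triple mutant BAT, against 5.82, 4.80 and 5.58 in ob/ob BAT. The BAT groups overlapped and the WAT groups did not. Its difference was −2.55 (SE 0.35, limma adjusted p = 0.00185), and only ob/ob WAT was above background. Mmp12 had effects of −6.42 in WAT and −3.15 in BAT and a difference of −3.27 (SE 0.50, limma adjusted p = 0.00307), with both triple mutant groups under background.

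Mast cell genes were lower in triple mutant WAT. Cpa3, the mast cell carboxypeptidase, had log2 levels of 6.15, 5.93 and 6.53 in triple mutant WAT, against 9.77, 9.69 and 8.36 in ob/ob WAT, and 6.50, 6.19 and 6.91 in triple mutant BAT, against 4.34, 6.26 and 5.30 in ob/ob BAT. The effect in BAT was 1.23 and not called (limma adjusted p = 0.0885), and the groups overlapped. The tissue difference was −4.30 (SE 0.65, limma adjusted p = 0.0029), but only ob/ob WAT was above background, so it is no fold estimate. Mcpt4, Tpsb2 and Cma1, all mast cell proteases, had differences of −3.08, −1.93 and −0.92, the first 2 with only ob/ob WAT above background and Cma1 with no group above it. These 4, all called lower in WAT and none called in BAT, were the genes with a called difference among 16 mast cell and granulocyte markers, and 7 negative and 1 positive were called with the random block. Markers of T and NK cells (18 genes) and of MHC class II and antigen presentation (15 genes) had no called difference in limma, with medians of −0.07 and −0.03. In the T and NK list 1 gene was called negative without ob/ob WAT array 3. In the MHC list 1 was called positive with array weights or without triple mutant WAT array 3, and 1 negative with the probe set of largest range or without ob/ob BAT array 1.

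Calls among cell cycle genes depended on single arrays and on the fit. Of 33 genes 2 were called negative, Pcna and Ccnb1, against 8.39% of all genes. The median tissue difference was −0.77, with median effects of −1.51 in WAT and −0.62 in BAT. The number called was 18 with array weights, 7 with the random replicate block or with median centring, and 6 with fixed blocks. Without ob/ob BAT array 1, 25 were called negative and the median was −1.14. The mean log2 level of the list was 5.61 to 5.75 in triple mutant BAT, against 7.14 on that array and 6.03 and 5.99 on the other ob/ob BAT arrays. No gene of the list was called when array 1 or 2 of either WAT group, ob/ob BAT array 3, or triple mutant BAT array 1 or 3 was left out.

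Endothelial genes had median effects of opposite sign in the 2 tissues. Of 17 endothelial markers 13 had a called positive difference and none a negative one (median 0.82). The median effect was 0.54 in WAT, where 9 were called higher, and −0.40 in BAT, where 5 were called lower and 1 higher, and Egfl7 was the only one opposite by the test of single genes. The number called lower in BAT was 1 without ob/ob BAT array 1 or triple mutant BAT array 2 or 3, and 3 with median centring or the muscle covariate. Mean log2 levels of the list were 8.60, 8.58 and 8.53 in triple mutant WAT, against 7.71, 8.13 and 8.22 in ob/ob WAT, and 8.54, 8.37 and 8.46 in triple mutant BAT, against 8.83, 8.74 and 8.67 in ob/ob BAT. The genotypes were apart in both tissues. Without ob/ob WAT array 1, the lowest, the median effect in WAT was 0.24 and 10 genes were called. The called number was 8 without triple mutant WAT array 2 or triple mutant BAT array 2 or 3, and 9 with the muscle covariate or with median centring.

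Of 12 smooth muscle and pericyte markers 8 were called positive and none negative (median 0.90), with median effects of 0.48 in WAT and −0.41 in BAT. Their mean log2 levels were 8.09, 8.14 and 7.90 in triple mutant WAT, against 7.36, 7.47 and 7.58 in ob/ob WAT, and 8.03, 7.73 and 7.60 in triple mutant BAT, against 8.02, 8.39 and 8.28 in ob/ob BAT. The WAT groups were apart and the BAT groups overlapped, while skeletal muscle markers stood at 10.18, 7.71 and 6.25 in triple mutant BAT, against 7.27, 10.66 and 10.44 in ob/ob BAT. With the muscle covariate 7 were called and the median effect in BAT was −0.33. Myh11, smooth muscle myosin, had effects of 1.24 and −0.38 and a difference of 1.62 (limma adjusted p = 0.00137), and Acta2, smooth muscle actin, 0.35 and −0.93 with a difference of 1.28 (limma adjusted p = 0.0145).

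The median tissue difference of skeletal muscle markers was 1.56, and 1 of 30 genes, Myl1, was called, which was not called without any 1 WAT array, ob/ob BAT array 2 or 3, or triple mutant BAT array 2 or 3. Their median effect was 0.03 in WAT and −1.54 in BAT. It came with the spread between BAT arrays given above, and without single BAT arrays the median difference ran from 0.56 (without triple mutant BAT array 3) to 2.68 (without ob/ob BAT array 1). Over all genes, 1175 had a correlation of at least 0.9 in size with the muscle mean about the group means of the 6 BAT arrays. Of these 1175 genes, 117 had a called difference and 6 were opposite, against 13.9% and 0.565% of all genes. Nothing is read from these counts. With the muscle covariate 979 positive and 1402 negative differences were called. The part of muscle in other BAT values was not tested.

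**Figure D4:**
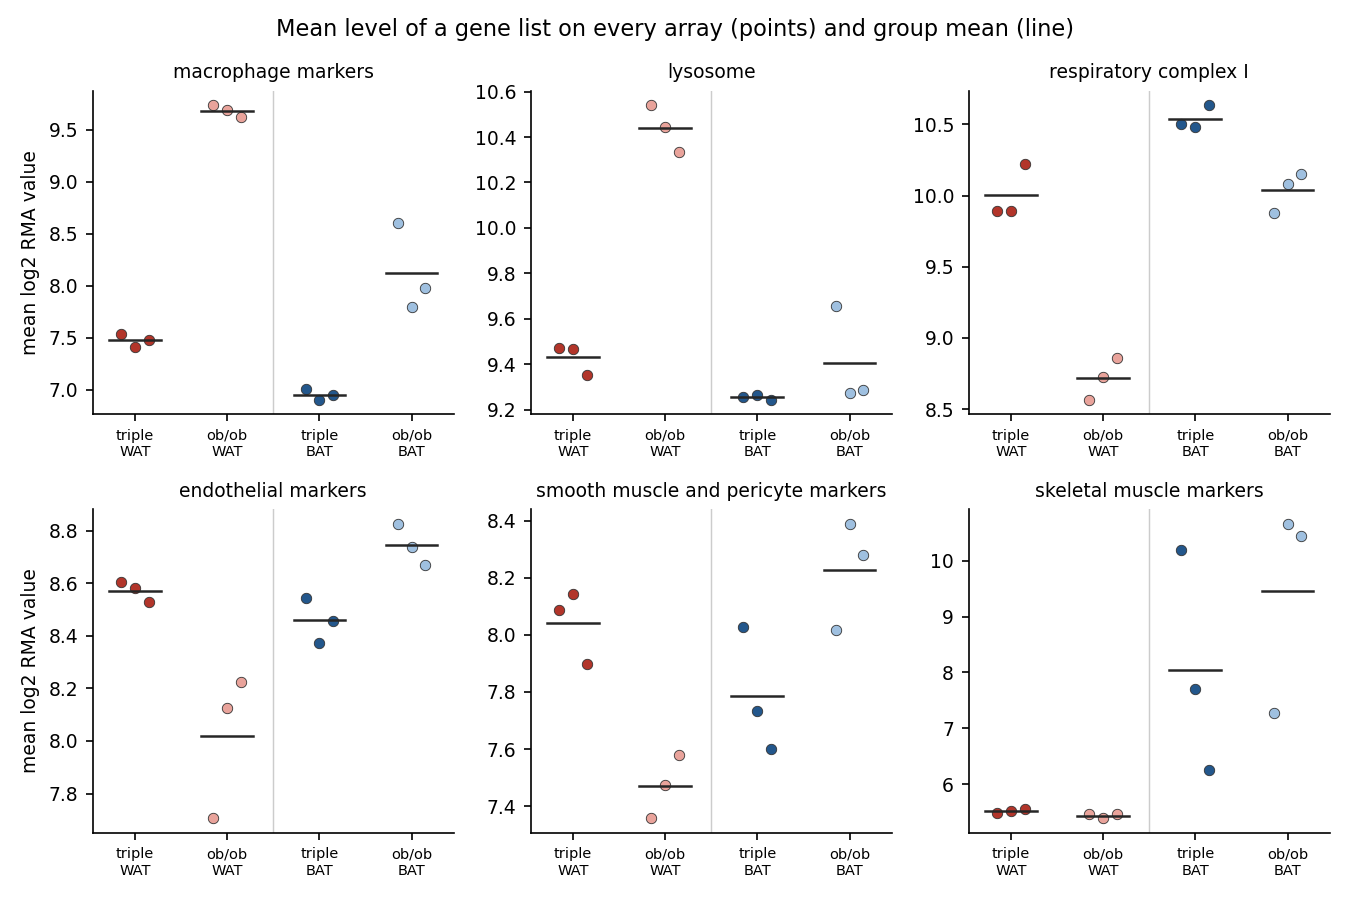
Mean log2 level of 6 gene lists on each array (points) with group means (lines), triple mutant left of ob/ob and WAT left of BAT, each panel with its own axis. Macrophage and lysosome lists are highest in ob/ob WAT, endothelial markers are higher in triple mutant WAT and lower in triple mutant BAT than in ob/ob mice, and skeletal muscle markers run from 6.25 to 10.66 over the BAT arrays.

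In a smaller group of genes the effect was called in BAT and was the larger one there. Sfrp2, a secreted regulator of Wnt signalling, had log2 levels of 8.31, 8.83 and 8.95 in triple mutant WAT, against 7.53, 7.90 and 8.92 in ob/ob WAT, and 6.62, 6.62 and 6.19 in triple mutant BAT, against 8.59, 8.09 and 8.21 in ob/ob BAT. The WAT groups overlapped and the BAT groups were apart, and the tissue difference was 2.40 (SE 0.43, limma adjusted p = 0.00574). As triple mutant BAT was under background for Sfrp2, this difference is no estimate of a fold. Prnd, which encodes the prion-like protein doppel, had effects of −0.58 in WAT and −2.29 in BAT. Clu, the secreted chaperone clusterin, had 0.33 in WAT and −1.37 in BAT. Eln, elastin, had 0.18 in WAT and −0.84 in BAT, and Dlk1, a marker of preadipocytes, 0.20 and −0.80. These 4 genes had tissue differences of 1.72, 1.70, 1.02 and 1.002, and the levels of Prnd, Eln and Dlk1 were under background in all groups.

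Enzymes were among the genes with a larger positive effect in BAT. Hyal1, a lysosomal hyaluronidase, had log2 levels of 8.96, 8.79 and 9.05 in triple mutant WAT, against 8.25, 8.35 and 8.20 in ob/ob WAT, and 9.38, 9.53 and 9.72 in triple mutant BAT, against 7.77, 7.55 and 7.62 in ob/ob BAT. It was higher in both tissues, and the tissue difference was −1.23 (SE 0.15, limma adjusted p = 0.00108). As ob/ob BAT was under background, neither the effect in BAT nor this difference estimates a fold. Hyal1 had the largest BAT effect of the 12 genes called the same way in both tissues with the larger effect in BAT. It was chosen after its values were seen. Acss1, which makes acetyl-CoA in mitochondria, had −0.12 in WAT and 1.23 in BAT with a difference of −1.35 (limma adjusted p = 0.00983). Acot11, an acyl-CoA thioesterase of brown fat, had 0.58 and 1.83, and its difference of −1.26 (limma adjusted p = 0.0245) was not called when array 1 or 2 of either WAT group, ob/ob BAT array 3 or triple mutant BAT array 2 was left out (adjusted p from 0.052 to 0.062).

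Other called differences fell outside these groups. Sptlc3, a subunit of serine palmitoyltransferase, the first enzyme of sphingolipid synthesis, had effects of 3.61 and 0.51 and a difference of 3.10 (limma adjusted p = 0.00301). Postn, the matrix protein periostin, was lower in WAT by a log2 change of −2.31 with −0.34 in BAT, a difference of −1.96 (limma adjusted p = 0.00122). Among 28 matrix genes 2 were called positive and 4 negative, with 2 negative calls without, for example, ob/ob WAT array 1, and 8 with fixed blocks. Atf3, a stress-induced transcription factor, had effects of −4.11 and −1.09 with a difference of −3.03, while Asns, asparagine synthetase, had 1.93 and 0.51 with a difference of 1.43, in a stress response list with 1 positive and 3 negative calls among 27 (5 and 6 with array weights). Genes of the cytosolic ribosome (47) had a median of −0.08 and 1 called difference, negative. The number was 0 with the muscle covariate and 4 with median centring. Over all genes 5.47% were called positive and 8.39% negative, and nothing is read from the matrix, stress or ribosome counts.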

How the data were processed

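RNA of each sample was measured on 1 Affymetrix mouse array. RMA and limma are named, with no version, per the submitters' processing notes. The authors deposited log2 RMA values of 35556 probe sets. Their 2 lists of changed genes give log2 fold changes and absolute fold as a ratio, per the file headers. The authors' expression table gave the annotation (NCBIM37 positions), and its 12 value columns match no label and were not used. Of 28350 main probe sets, 24978 named 1 usable symbol (2 named several, 3344 none, 26 had a damaged symbol). The probe set with the highest mean represented a gene, which gave 21593 genes, 1832 with several probe sets. Of the symbols 18651 were current, 2222 older and 720 unmatched.

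limma 3.58.1 in R 4.3.3 was fitted to 12 arrays with 4 group means (8 residual and 3.47 prior degrees of freedom). Python 3.11.15 and matplotlib 3.10.9 drew figures. No gene was filtered for low signal. The number of arrays limits the precision. The members, the 47 lists and the tests were chosen with earlier results of these data known.

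Genes were named by rule: the 15 largest called differences per direction, up to 15 opposite genes per direction by the smaller effect, up to 10 per direction larger in BAT and up to 10 of the same direction in both tissues, each with a group mean of at least 6, then the 4 genes of smallest p per list, and 11 chosen genes. Members of the lists and genes of the printed promoters were added. Not every such gene is printed, and some results are not reported here.

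Replicate numbers of the titles recur across tissues. Within a genotype, same-numbered WAT and BAT arrays deviated together from their group means (r from 0.151 to 0.221, across genes), each above the other numbers, so the numbers were taken as pairing WAT with BAT arrays. Between genotypes within BAT the same-numbered arrays had r from −0.431 to −0.228, so the block was genotype and number together. Within WAT r between genotypes was −0.0461, 0.0691 and 0.113 for numbers 1, 2 and 3. For numbers 2 and 3 it was above the other numbers (highest r 0.0199 and 0.0201). The choice of block is therefore less settled by the WAT values. The main fit held no block, so its calls and p-values ignore this pairing. Blocks entered only as alternatives. Tests ran on simulated data with known differences before use.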

Additional observations from a re-analysis of the deposited data

Results flagged for a closer look

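The test of the difference between the effects in WAT and in BAT was passed by 2993 genes, and 122 of these had called effects of opposite direction. The values below are tissue differences in log2 of genes with large differences or with opposite effects, all past that test, with no explanation weighed. In Rgs4, Jag2, Tead2, Adgrl1, Gabbr1, Gngt2, Frk, Cbr3 and Ormdl1 every group was under background, so their values are no estimates of a fold. The same holds for any other gene with a group under background.

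Among opposite genes higher in WAT and lower in BAT the values were Cbr2 (2.62), Mgst3 (2.18), Twist2 (1.62), Adgrg1 (1.78), Cdh13 (1.48), Gdf10 (1.29), Bcam (1.29), Tagln (1.47), Egfl7 (1.19), Rgs4 (0.97), Jag2 (0.91), Tead2 (0.97), Dock6 (0.88), Adgrl1 (0.93) and Gabbr1 (0.91). Among opposite genes lower in WAT and higher in BAT they were Pla2g7 (−3.38), Galc (−1.97), Cbr3 (−2.05), St6gal1 (−1.80), Mfsd11 (−1.48), Ankrd49 (−1.45), Stxbp2 (−1.52), Acsl5 (−1.97), Atp6v1c1 (−1.51), Gngt2 (−1.34), Ormdl1 (−1.20), Rnft1 (−1.17), Sgpl1 (−1.14), Frk (−1.09) and Nxt2 (−1.10). Of the opposite genes named only here, and leaving out the requirement of effects beyond log2 0.5, under which 0 genes were opposite, Rgs4 kept the opposite call in 6 of 20 settings, Jag2 in 6 of 20, Tead2 in 20 of 20, Dock6 in 16 of 21, Adgrl1 in 9 of 20, Gabbr1 in 20 of 20, Mfsd11 in 21 of 21, Ankrd49 in 21 of 21, Stxbp2 in 12 of 21, Gngt2 in 14 of 20, Rnft1 in 19 of 21, Frk in 12 of 20 and Nxt2 in 12 of 21.

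Large positive differences among the other genes were Cox8b (3.99), Cidea (3.95), Cpt1b (3.22), Sptlc3 (3.10), Cfd (2.997), Tlcd4 (2.94), Cox7a1 (2.93), Elovl7 (2.93), Dnajc6 (2.89), Shisa6 (2.76), Pck1 (2.74), Chchd10 (2.64) and Agt (2.63). Large negative ones were Gpr50 (−5.005), Atp6v0d2 (−4.83), Cpa3 (−4.30), Serpinb9b (−3.86), Dhrs9 (−3.84), Tm4sf19 (−3.64), Il7r (−3.55), Rgs1 (−3.39), Cd200r4 (−3.39), Nceh1 (−3.36), Il1rn (−3.34), Rnf128 (−3.32), Gpnmb (−3.31) and Cd72 (−3.28). Rgs1 was not called without ob/ob WAT array 1 or without ob/ob BAT array 3. Groups of 3 arrays were not examined for single outlying values.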

How the results depend on the processing

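The number of called tissue differences (2993) was 5461 with array weights and 214 when a difference beyond log2 0.5 was required (treat). It ran from 1778 to 3378 without single arrays. With replicate block it was 3630 (6 fixed blocks) and 4473 (random). The number of genes called in WAT (7407) was 4706 when only the 7318 genes with a group mean above the highest control entered, since fewer genes were tested, and 2086 with treat, and ran from 5967 to 7483 without single arrays. The number in BAT (3753) was 118 with treat and ran from 2459 (without triple mutant BAT array 3) to 4047. The number of opposite genes (122) was 214 with arrays centred on their medians, 288 with array weights and 0 with treat, and ran from 55 to 176 without single arrays. With the random replicate block it was 122, of which 115 are shared with the fit without it. Higher and lower calls in BAT were 2247 and 1506, or 3409 and 928 with median centring.

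Of 253 genes named by rule, 213 had a called difference. Over all alternatives 352 of 5752 gene values lost the call, 137 of them under treat, 92 gained it and none changed sign. For the 22 lists with a median difference of at least 0.5 in size none of 506 medians changed sign. The causes were not tested.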

Other observations

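Of 10 erythroid markers 4 were called positive in limma and none negative, with a median of 0.23. Their mean log2 level was 7.19 to 7.22 in triple mutant WAT and 7.26 to 7.40 in triple mutant BAT, against 6.44 to 6.76 in ob/ob WAT and 7.18 to 7.35 in ob/ob BAT. Hbb-b1 and Hbb-b2, near-identical globin genes that probes may not tell apart, had differences of 1.23 each.

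Among regulators, Hoxb5, a positional homeobox gene named because it had opposite effects, had effects of 0.71 in WAT and −0.39 in BAT and a difference of 1.10 (limma adjusted p = 0.00302). Leaving treat aside, its opposite call held in only 9 of the 20 settings that tested it. Every group was under background for Hoxb5, so neither its effects nor its difference estimate a fold. Bmp4, a ligand that acts on preadipocytes, had 1.09 and −0.44 with a difference of 1.53 (limma adjusted p = 0.00895), and Sfrp5, a secreted Wnt regulator, −3.00 and −0.05 with a difference of −2.94 (limma adjusted p = 0.001).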
